A study of Mus musculus with 6 samples.

Results

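The nuclear genes of oxidative phosphorylation (OXPHOS) were described in VGB6, a line of mouse embryonic stem (ES) cells, in 3 wild-type libraries and 3 ZRSR2 knockout libraries, numbered 2, 3 and 5 in each group. Members were the protein-coding genes of the mm10 RefSeq annotation whose symbol names a subunit of NADH dehydrogenase (Nduf), succinate dehydrogenase (Sdh), the cytochrome bc1 complex (Uqcr and Cyc1), cytochrome c oxidase (Cox) or ATP synthase (Atp5), with pseudogenes left out, and the introns inside their spans on the gene's strand. Of 88 genes that matched, 86 held a listed intron, of 25006 genes with a listed intron in all. They held 367 of the 219945 listed introns. Complex I (NADH dehydrogenase) had 36 genes with 162 introns, complex II (succinate dehydrogenase) 4 genes with 30 introns, complex III (cytochrome bc1) 9 genes with 41 introns, complex IV (cytochrome c oxidase) 20 genes with 47 introns and complex V (ATP synthase) 17 genes with 87 introns. The other two matching genes, Ndufb4b and Ndufb4c of complex I, had no listed intron and were not analysed here. Ndufa4 and its paralog Ndufa4l2 were counted with complex IV, because the protein of Ndufa4 is known as a subunit of that complex. The rule itself uses symbols and positions only.

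All libraries were made from polyA-selected RNA. The labels give the genotype only as wild type or knockout; the sources used here do not give how the allele was made, the number of clones or whether feeder cells were used. Separate cultures for the replicates are not stated either, and the p-values therefore measure the spread between these samples alone, which may be technical. Bulk RNA cannot tell fewer cells of a type from less RNA per cell.

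Oxidative phosphorylation takes place in the inner mitochondrial membrane. Complexes I and II pass electrons from NADH and succinate to ubiquinone, complex III passes them to cytochrome c and complex IV to oxygen, and complexes I, III and IV pump the protons that drive ATP synthase. Most subunits are encoded in the nucleus and a few of the catalytic ones in mitochondrial DNA, whose genes have no introns and so are outside these intron tables. Mouse ES cells rely strongly on glycolysis and also respire. ZRSR2 helps the minor spliceosome, which removes the rare U12-type introns, to recognise the end of an intron, and the study's design sets its knockout against wild type. The comparison here asks whether the level and the splicing of the OXPHOS genes differed between those groups.

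The libraries held between 19801687 and 63623214 spliced reads. The targeted gene Zrsr2 had 660, 2190 and 2129 spliced reads in wild-type libraries and 33, 12 and 0 in knockout libraries (log2 change -6.70, SE 0.59, adjusted p = 0.0219, edgeR quasi-likelihood test with Benjamini-Hochberg adjustment). When 1 library was left out its adjusted p became 0.411 for knockout replicate 3, and 0.144 and 0.0875 for replicates 2 and 5 of the wild type, by the same edgeR test. All 10 ES cell markers on a list that included Pou5f1, Nanog and Dppa5a were detected, with summed levels of 2098 to 2305 CPM (counts-per-million of the library, TMM-scaled) in wild-type libraries and 2071 to 2358 in knockout libraries. Levels of a gene here count the spliced reads over all its introns, so genes with many introns weigh more in a sum. The 8 fibroblast markers differed widely within both groups. Their summed levels were 313, 146 and 72.6 CPM in wild-type replicates 2, 3 and 5. In knockout replicates 2, 3 and 5 they were 355, 224 and 36.8 CPM, falling in the same order. Lum, one of these markers, was at or near 0 in every library. Their part in the results below was not tested. Summed levels of 4 trophoblast markers ran from 29.3 to 53.3 CPM in wild-type libraries and from 20.3 to 131 CPM in knockout libraries, where Krt8 made up most of the sum, while Elf5 was at or near 0. The 5 primitive endoderm markers summed to 8.01 to 12.6 CPM and 6.66 to 11.9 CPM. Single markers behind these sums differed in direction, and none passed the adjusted threshold. All knockout libraries lay above all wild-type libraries for Pou5f1 (log2 change 0.47, SE 0.18) and below them for Tdgf1 (-0.32, SE 0.08), Gata6 (-1.43, SE 0.52) and Eomes (-1.02, SE 0.33), while Nanog (-0.58, SE 0.24) overlapped.

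In wild-type ES cells the genes of ATP synthase had the highest median level of the 5 complexes and those of complexes I and II the lowest. To compare genes, the level was taken in CPM over the best covered intron of each gene, since that value does not add up over introns. As the largest value of a gene it can still rise somewhat with the number of introns. The median wild-type level over 1 intron was 29.4 CPM for complex I, 30.2 for complex II, 50.5 for complex III, 67.4 for complex IV and 82.7 for complex V. The order was the same in knockout libraries, with medians of 32.7, 33.6, 56.9, 71.0 and 95.4 CPM. Levels also varied widely within a complex, from 43.7 to 334 CPM in complex V and from 19.2 to 66.3 CPM in complex I.

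ATP synthase turns proton flow into ATP through a rotating ring of c subunits and a catalytic head of alpha and beta subunits around a gamma shaft. Atp5b, which encodes the catalytic beta subunit, had the highest level over 1 intron of all members, at 334 ± 9.06 CPM in wild-type libraries (SD, n = 3) and 339 ± 28.5 in knockout libraries. Atp5a1, for the alpha subunit, stood at 196 ± 11.5 and 201 ± 8.66 CPM. The gamma subunit gene Atp5c1 was lower, at 67.4 ± 5.62 and 77.4 ± 1.64 CPM, as were the delta subunit gene Atp5d, at 52.0 ± 6.51 and 57.1 ± 2.85 CPM, and the OSCP gene Atp5o, at 112 ± 7.11 and 125 ± 13.9 CPM. Atp5e, for the epsilon subunit, had 94.6 ± 2.87 and 108 ± 19.0 CPM. The levels differed far more between these 6 genes than between the groups.

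The c subunit of the ring is encoded by 3 genes whose mature proteins are the same. In wild type Atp5g3 gave 42.3% ± 1.39 of their summed spliced reads over the best covered introns, Atp5g2 34.5% ± 2.08 and Atp5g1 23.2% ± 3.44 (SD, n = 3). The knockout libraries had 41.9% ± 1.54, 31.6% ± 0.91 and 26.6% ± 1.96. Atp5g1 varied most within groups, with 227, 258 and 171 CPM over all its introns in wild-type libraries and 310, 226 and 278 CPM in knockout libraries. The knockout libraries were not all above the wild-type libraries for this gene, since knockout replicate 3 lay below wild-type replicates 2 and 3.

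Among the named subunits of the other complexes, Cox4i1 stood highest over 1 intron. Its level was 230 ± 14.9 CPM in wild-type libraries and 266 ± 20.4 CPM in knockout libraries. Cox4i1 encodes the ubiquitous form of subunit IV of cytochrome c oxidase. Of the other ubiquitous complex IV subunits, Cox6c had 126 ± 15.5 and 141 ± 13.5 CPM, Cox5b 87.7 ± 22.0 and 104 ± 20.5 CPM, and Cox5a 67.3 ± 3.41 and 66.6 ± 0.25 CPM. The complex III core gene Uqcrc1 had 50.5 ± 3.61 and 56.9 ± 3.78 CPM, Cyc1, for the cytochrome c1 haem protein, 49.1 ± 0.90 and 50.4 ± 1.20 CPM, and Uqcrc2 26.3 ± 0.80 and 26.5 ± 0.14 CPM. Uqcrfs1, for the Rieske iron-sulfur protein, had the lowest level of complex III, at 14.8 ± 1.16 and 16.2 ± 1.15 CPM over its only listed intron. Complex II lay in a narrow range, from Sdhc, a membrane anchor, at 24.3 ± 1.80 CPM in wild-type libraries to Sdha, the flavoprotein, at 41.8 ± 1.57 CPM. In complex I, the NADH-binding subunit gene Ndufv1 had 25.5 ± 3.16 CPM, and Ndufs1 and Ndufs7, for iron-sulfur subunits, 20.4 ± 1.78 and 27.8 ± 1.52 CPM.

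**Figure D1:**
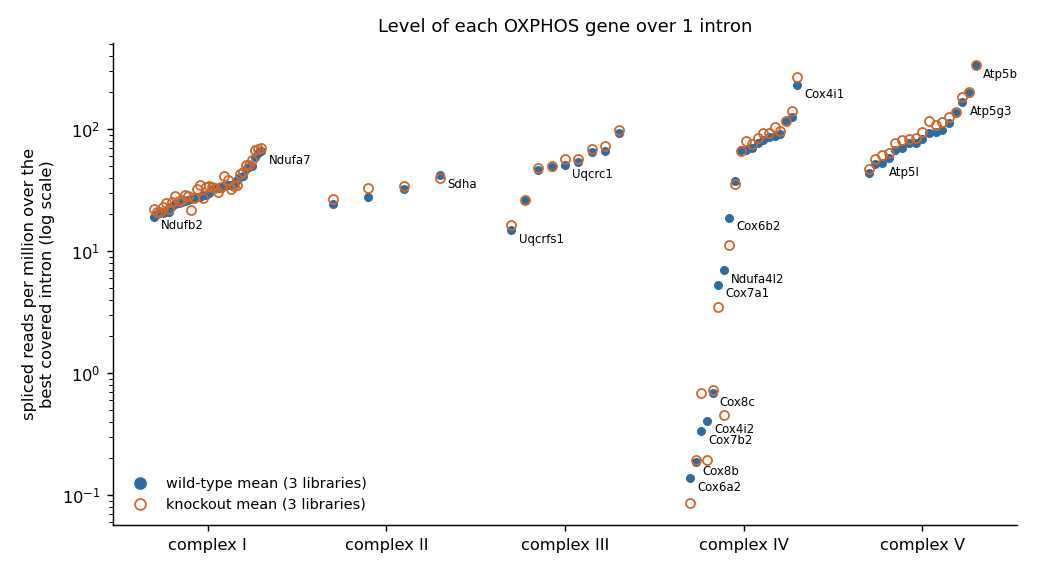
Level of each of the 86 genes as spliced reads over its best covered intron, in CPM (log scale), by complex; filled points are wild-type means and open points knockout means, each of 3 libraries. Atp5b lies highest, at 334 CPM in wild-type libraries, and several paralogs of complex IV lie lowest, with Ndufa4l2 at 6.95 CPM in wild-type libraries and 0.45 CPM in knockout libraries.

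Many complex IV subunits have paralogs, an isoform for most tissues and one known from heart and skeletal muscle, testis or other settings. In these ES cells the ubiquitous isoform gave nearly all reads of most pairs. Cox4i1 took 99.8% ± 0.096 of the reads of Cox4i1 and Cox4i2 in wild-type libraries, Cox6a1 99.9% ± 0.066 against its muscle isoform Cox6a2, Cox7b 99.6% ± 0.20 against Cox7b2, and Cox8a 99.1% ± 0.31 of the reads of Cox8a, Cox8b and Cox8c (SD, n = 3). The rare partners had very few reads: Cox6a2 had 3 to 23 and Cox8b 4 to 19 in a library, and both were too low to be tested. Cox8c had 9 to 91 reads, Cox4i2 18 to 89 and Cox7b2 10 to 49. Cox7b2 was at 0.50, 0.73 and 0.26 CPM in wild-type libraries and at 0.81, 0.93 and 1.14 CPM in knockout libraries, so that the groups did not overlap at this very low level (log2 change 0.95, SE 0.49, adjusted p = 0.522, edgeR).

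Cox6b2, Cox7a1 and Cox7a2l took larger shares. Cox6b2, known as the testis isoform of subunit VIb, gave 20.8% ± 5.10 of the reads of Cox6b1 and Cox6b2 in wild-type libraries and 13.2% ± 2.44 in knockout libraries. Cox7a1, the muscle isoform of subunit VIIa, gave 4.26% ± 0.78 and 2.62% ± 0.23 of its set. Cox7a2l, which is known to help join complexes III and IV into supercomplexes, gave 30.3% ± 1.70 and 27.2% ± 3.21, and Cox7a2 gave the rest. Shares of Cox6b2 and of Cox7a1 in the 3 knockout libraries all lay below those in the 3 wild-type libraries.

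The member with the smallest p-value was Ndufa4l2, a paralog of Ndufa4 known to be induced when oxygen is low. In wild-type replicates 2, 3 and 5 its level was 22.4, 3.98 and 30.4 CPM (451, 218 and 1996 reads over its 3 listed introns). In the knockout it had 1.83, 1.12 and 0.81 CPM (111, 35 and 29 reads). Every knockout library was below every wild-type library, and wild-type replicate 3 lay much nearer to the knockout than the other two did. The log2 change was -3.88 (SE 0.71), the knockout mean being 0.0662 of the wild-type mean, but the gene did not pass the adjusted threshold in edgeR (unadjusted p = 0.00054, adjusted p = 0.288, quasi-likelihood test over 16949 genes). DESeq2 called it (log2 change -3.90, adjusted p = 0.000829), where 1.57% of all genes with an adjusted p were called, and edgeR called it when wild-type replicate 3 was left out (log2 change -4.36, adjusted p = 0.0202). Its partner Ndufa4 had 231, 231 and 209 CPM in wild-type libraries and 267, 219 and 229 CPM in knockout libraries, and the groups overlapped. Ndufa4l2 gave 7.44% ± 5.60 of the reads of the pair in wild-type libraries and 0.47% ± 0.15 in knockout libraries. Summed fibroblast marker levels in replicates 2, 3 and 5 were 313, 146 and 72.6 CPM in the wild type and 355, 224 and 36.8 CPM in the knockout. A relation of these markers to Ndufa4l2 was not tested.

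Cox6b2 and Cox7a1 were also lower in every knockout library than in any wild-type library. Cox6b2 had 15.0, 15.1 and 26.3 CPM in wild-type libraries and 11.9, 12.3 and 9.80 CPM in knockout libraries (log2 change -0.73, SE 0.24, adjusted p = 0.480, edgeR). Wild-type replicate 5 was the highest by far, and the other wild-type libraries lay just above the knockout. Cox7a1 had 10.8, 10.3 and 15.0 CPM in wild-type libraries and 9.78, 6.37 and 7.74 CPM in knockout libraries (log2 change -0.59, SE 0.23, adjusted p = 0.485, edgeR), and again wild-type replicate 5 was highest. Their ubiquitous partners overlapped between the groups. Cox6b1 had 173, 204 and 186 CPM in wild-type libraries and 238, 184 and 204 CPM in knockout libraries, and Cox7a2 194, 187 and 184 CPM and 231, 184 and 200 CPM. Ndufa4l2, Cox6b2 and Cox7a1 were the only 3 of 84 tested members for which all knockout libraries were lower, beside 8.07% of all genes tested.

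**Figure D2:**
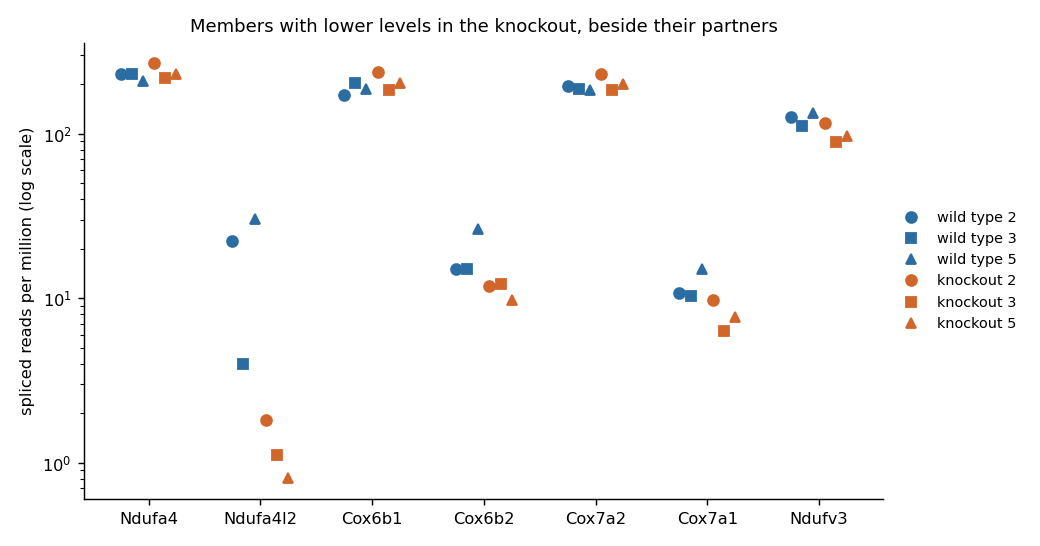
Spliced reads in CPM (log scale) of 7 genes in each of the 6 libraries; colour gives the group and the shape of the point the replicate number. Ndufa4l2, Cox6b2 and Cox7a1 were lower in all 3 knockout libraries, while their partners Ndufa4, Cox6b1 and Cox7a2, and Ndufv3, had groups that overlap.

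The promoters of these pairs are shown beside those of genes that hold motifs common in the set. Given are the 120 bases before a RefSeq start of the partners Cox6b1 and Cox6b2 and Cox7a2 and Cox7a1 on the gene's strand (build GRCm38). The same bases of Sdha and Atp5j are given for comparison. Capitals mark matches on either strand to GCGCANGCG (the NRF1 motif), CCGGAAG (the ETS motif, bound by GABP) or AAGATGGCG (the YY1 motif), factors known to drive nuclear OXPHOS genes.
Cox6b1, chr7:30626115-30626234, minus strand: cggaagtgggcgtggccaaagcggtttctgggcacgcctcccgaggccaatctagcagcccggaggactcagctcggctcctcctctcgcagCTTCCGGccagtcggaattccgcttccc
Cox6b2, chr7:4753095-4753214, minus strand: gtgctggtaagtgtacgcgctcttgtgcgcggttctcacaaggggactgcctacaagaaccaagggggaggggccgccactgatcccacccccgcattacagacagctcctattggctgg
Cox7a2, chr9:79759854-79759973, minus strand: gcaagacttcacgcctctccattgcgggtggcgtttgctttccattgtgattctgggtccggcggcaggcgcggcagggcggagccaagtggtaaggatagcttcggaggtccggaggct
Cox7a1, chr7:30184051-30184170, plus strand: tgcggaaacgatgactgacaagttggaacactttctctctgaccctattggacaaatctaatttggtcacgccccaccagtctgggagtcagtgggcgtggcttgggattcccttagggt
Sdha, chr13:74350241-74350360, minus strand: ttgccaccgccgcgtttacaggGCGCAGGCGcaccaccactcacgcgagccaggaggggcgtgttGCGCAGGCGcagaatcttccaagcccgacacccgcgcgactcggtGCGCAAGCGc
Atp5j, chr16:84834977-84835096, minus strand: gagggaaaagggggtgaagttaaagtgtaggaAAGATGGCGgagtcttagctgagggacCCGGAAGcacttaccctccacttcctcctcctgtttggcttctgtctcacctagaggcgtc

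Cox6b1 held an ETS match in its window and Cox6b2 none of these letters, while neither the Cox7a2 nor the Cox7a1 window held any. The Cox7a2 start used lies inside the RefSeq span of the gene, which reaches chr9:79771422 on the minus strand. Another RefSeq start of Atp5j, not shown, had no match in its window. Over the whole set, promoter windows of 300 bases (250 before the start and 50 after it) were found for 70 members, as 75 windows. The NRF1 letters were in 28% of them, beside 6.25% of 32851 windows of all genes. ETS letters were in 22.7% beside 8.86%, YY1 letters in 9.33% beside 1.40%, and any of the 3 in 49.3% beside 14.8%. OXPHOS windows also held more CpG dinucleotides, with a median of 19 beside 7, and the median GC content was 57.3% beside 52.7%. A match is a description of the letters only.

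Across the whole set, most members were slightly higher in knockout libraries, and no member passed the test. Of 84 genes tested, 69 had a log2 change above 0, beside 49.1% of all genes tested, and the median log2 change was 0.11, beside -0.01 over all 16949 genes. The median standard error of a member was 0.11, and 70 of the 84 changes lay within 0.2 of 0 on the log2 scale. At the adjusted threshold of 0.05, edgeR called none of the members and 0.0177% of all genes. The count at an unadjusted p under 0.05 depended on single libraries. There was no member among the higher genes, where 3.99% of all genes were found, and 4 among the lower genes (Ndufa4l2, Cox6b2, Cox7a1 and Ndufv3), where 5.96% of all genes were found. In both directions together leaving out replicate 3 of the wild type gave 14, leaving out its replicate 5 gave 2, and leaving out knockout replicate 5 gave 1. DESeq2 called 1 member, Ndufa4l2.

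The upward shift was uneven over the libraries. Knockout replicate 2 was the highest of the 6 libraries for 59 of the 86 members, whereas it was the highest for 17.1% of all genes tested. OXPHOS genes took 1.56%, 1.58% and 1.56% of all spliced reads in wild-type replicates 2, 3 and 5, and 1.72% and 1.54% in knockout replicates 2 and 3. Knockout replicate 3 thus lay below all wild-type libraries, and knockout replicates 2 and 5 above them. Without knockout replicate 2 the median log2 change of the members was 0.05, and without knockout replicate 3 it was 0.15. Scaling by library size without TMM factors moved the median to 0.07, with -0.05 over all genes.

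By complex, the medians of the log2 changes were 0.09 for complex I, where 30 of 36 genes were higher, -0.0027 for complex II (1 of 4), 0.10 for complex III (8 of 9), 0.09 for complex IV (13 of 18) and 0.13 for complex V, where all 17 were higher. The smallest adjusted p was 0.498 in complex I, 0.649 in complex II, 0.580 in complex III, 0.288 in complex IV and 0.499 in complex V (edgeR). The direction of Atp5g2 in complex V turned to -0.03 with library sizes without TMM and to -0.07 without knockout replicate 2, so that the count of 17 does not hold there.

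**Figure D3:**
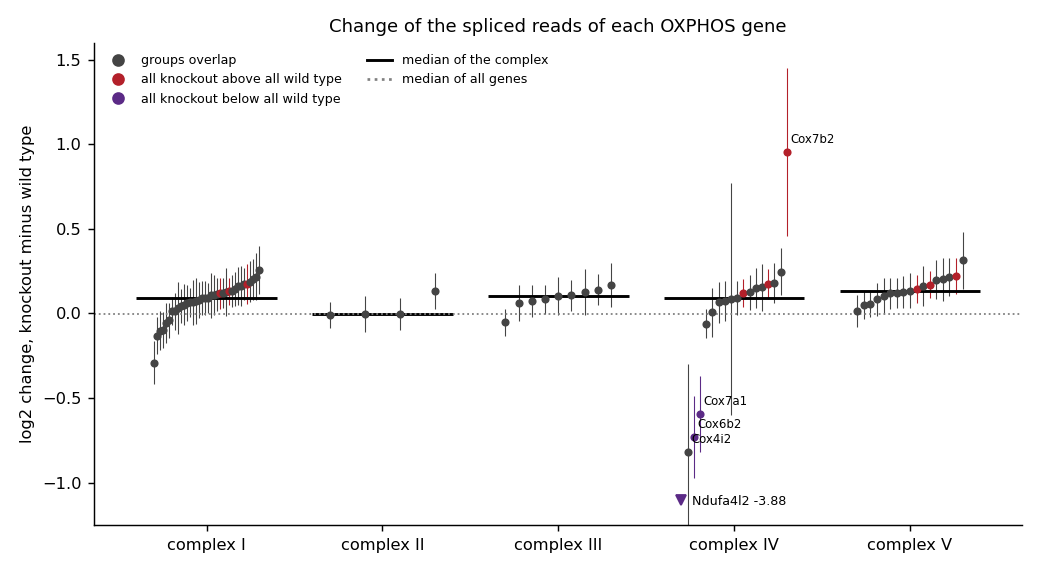
Log2 change of each of the 84 tested genes, knockout minus wild type, with its standard error, ordered within each complex; black bars are medians of a complex and the dotted line the median of all genes. Of the 84 points 70 lie within 0.2 of 0, red and purple mark genes whose groups do not overlap, and Ndufa4l2 at -3.88 is drawn at the lower edge as a triangle.

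For 9 members all knockout libraries were above all wild-type libraries, beside 7.3% of all genes tested. In complex V these were Atp5l, Atp5c1 and Atp5pb. Atp5l, for the small subunit g near the dimer interface of the enzyme, had 53.1, 57.3 and 47.8 CPM in wild-type libraries and 63.9, 59.5 and 61.0 CPM in knockout libraries (log2 change 0.22, SE 0.11, adjusted p = 0.504, edgeR). Atp5c1 had 414, 427 and 398 CPM in wild-type libraries and 485, 453 and 456 CPM in knockout libraries (log2 change 0.17, SE 0.08, adjusted p = 0.499). In both genes the gap between the groups was smaller than the range within knockout libraries. Atp5pb, for subunit b of the peripheral stalk, had 313, 344 and 308 CPM and 363, 355 and 350 CPM.

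In complex IV the genes that did not overlap upwards were Cox4i1, Cox7b and Cox7b2. Cox4i1 had 542, 574 and 533 CPM over all its introns in wild-type libraries and 671, 575 and 614 CPM in knockout libraries (log2 change 0.17, SE 0.09, adjusted p = 0.518, edgeR). Knockout replicate 3 and wild-type replicate 3 were nearly equal there. Cox7b, for the small subunit VIIb, had 148, 151 and 143 CPM and 168, 155 and 158 CPM. In complex I they included Ndufb2 and Ndufs4. Ndufb2, an accessory subunit, had 26.6, 27.9 and 28.3 CPM in wild-type libraries and 34.7, 29.2 and 29.6 CPM in knockout libraries. Ndufs4, an accessory subunit of the NADH-binding arm, had 77.7, 75.6 and 77.6 CPM and 88.0, 82.1 and 80.5 CPM. The adjusted p-values of Ndufb2 and Ndufs4 were 0.591 and 0.630 (edgeR).

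Ndufv3, an accessory subunit of the NADH-binding module of complex I, was the only complex I gene at an unadjusted p under 0.05. It had 126, 111 and 133 CPM in wild-type libraries and 116, 88.7 and 97.2 CPM in knockout libraries (log2 change -0.29, SE 0.13, unadjusted p = 0.0491, adjusted p = 0.498, edgeR). Knockout replicate 2 lay above wild-type replicate 3, so the groups overlapped. Listed introns of Ndufv3 are nested, so that 1 spliced read can count for several of them. Wild-type replicate 2 had 2543 summed reads, and 979 when reads of wider introns were taken off. In complex II, Sdha had a log2 change of -0.0097 (SE 0.08), the iron-sulfur subunit gene Sdhb -0.0025 (SE 0.09), Sdhc -0.0029 (SE 0.10) and Sdhd, a membrane anchor, 0.13 (SE 0.10). The first 3 changed sign under some settings. In complex III, Uqcrc1 had 399, 432 and 376 CPM in wild-type libraries and 451, 413 and 467 CPM in knockout libraries, and the groups overlapped.

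Genes that build or regulate the complexes were given from lists beside the members, and none of them passed the adjusted threshold in edgeR. Their levels were CPM summed over all introns of a gene. Such sums grow with the number of introns, so the highest sum in a list need not be the highest expression. Of the complex I assembly factors 13 of 15 were higher, with a median log2 change of 0.12, and of the complex IV assembly factors 15 of 19 (median 0.11). Acad9 and Ecsit had the highest levels of the first list, at 63.9 ± 3.21 and 53.6 ± 8.11 CPM in wild-type libraries and 70.4 ± 4.38 and 65.4 ± 5.35 in knockout libraries. In the second list these were Cox17, a copper chaperone, with means of 55.7 and 59.4 CPM, and Cox15, for haem A synthesis, at 39.2 ± 0.56 and 35.1 ± 2.70 CPM. Complex II assembly had 1 of 3 higher, complex III assembly 5 of 6 and ATP synthase assembly 4 of 4, with medians of -0.05, 0.08 and 0.09. In those lists Sdhaf2, Uqcc2 and Atpaf1 stood highest, at 14.9 ± 1.41, 148.8 ± 3.81 and 37.6 ± 3.78 CPM in wild-type libraries and 16.3 ± 1.75, 159.5 ± 15.4 and 41.3 ± 0.93 CPM in knockout libraries. Cycs, for cytochrome c, had 136 ± 13.6 CPM in wild-type libraries and 162 ± 19.2 in knockout libraries (log2 change 0.25, SE 0.12, adjusted p = 0.499, edgeR), and Ndufab1, the mitochondrial acyl carrier protein, 51.1 ± 1.39 and 55.0 ± 2.17 CPM.

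The nuclear factors tied to OXPHOS genes were split, with 4 of 8 tested higher and a median of 0.01. Nrf1 had 102 ± 7.77 CPM in wild-type libraries and 110 ± 4.31 CPM in knockout libraries, and Pprc1, a coactivator, 131 ± 20.2 and 148 ± 11.9 CPM. Ppargc1a, the coactivator known from tissues of high oxidative capacity, had at most 0.091 CPM in any library. The enzymes of the citric acid cycle, which feed electrons to complexes I and II, had 5 of 13 higher and a median of -0.01. Mdh2, for malate dehydrogenase, had the highest level summed over introns, at 509.4 ± 67.6 CPM in wild-type libraries and 566.8 ± 45.1 CPM in knockout libraries. Genes that express mitochondrial DNA had 12 of 13 higher (median 0.15) and the mitochondrial ribosome 72 of 77 (median 0.19), with 10 at an unadjusted p under 0.05, all higher. Over all genes tested 49.1% were above 0, and 3.99% were higher at an unadjusted p under 0.05. Lrpprc, which stabilises mitochondrial mRNA, had 350.6 ± 35.2 and 365.2 ± 32.4 CPM, and Mrps5 had 188 ± 20.7 and 207 ± 14.7 CPM. Summed levels of the mitochondrial ribosome genes were 3998, 4463 and 3727 CPM in wild-type libraries and 4805, 4279 and 4685 CPM in knockout libraries, so that wild-type replicate 3 lay above knockout replicate 3 and the groups overlapped.

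The unspliced share of OXPHOS introns was low in both groups. It was measured as the MSI, the reads that cross the ends of an intron without splicing as a percent of those reads plus 2 times the spliced reads. Pooled over the 367 introns, it was 1.10%, 1.09% and 1.10% in wild-type replicates 2, 3 and 5 and 0.9996%, 1.23% and 1.16% in knockout libraries. Knockout replicate 2 lay below and the other knockout libraries above all wild-type libraries, and the difference of the means, 0.0334 percentage points, was smaller than the spread within knockout libraries (SD 0.12). All other introns had 1.75%, 1.76% and 1.66% in wild-type libraries and 1.57%, 1.90% and 1.73% in knockout libraries, with the same order of the knockout libraries. OXPHOS introns were thus less often unspliced than the other introns in each of the 6 libraries, by log2 ratios of -0.57 to -0.70, which were not tested.

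By complex, complex IV had the highest pooled MSI, at 1.45% ± 0.12 in wild-type libraries and 1.46% ± 0.10 in knockout libraries (SD, n = 3), and complex V the lowest, at 0.86% ± 0.010 and 0.91% ± 0.11. Complex I had 1.30% ± 0.061 and 1.35% ± 0.16, complex II 1.02% ± 0.0020 and 0.96% ± 0.11, and complex III 1.24% ± 0.065 and 1.27% ± 0.12. The rank of complex IV depended on the measure. Over its tested introns the median wild-type MSI was 0.52%, below 0.70%, 0.53% and 0.71% in complexes I, II and III. Cox4i1 intron 1, described below, held 8299 of the unspliced reads of complex IV. In every complex the means of the groups differed by less than the SD of the knockout libraries, and the wild-type values lay inside the range of the knockout in all but complex IV, where wild-type replicate 5 was the highest of the 6 libraries.

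**Figure D4:**
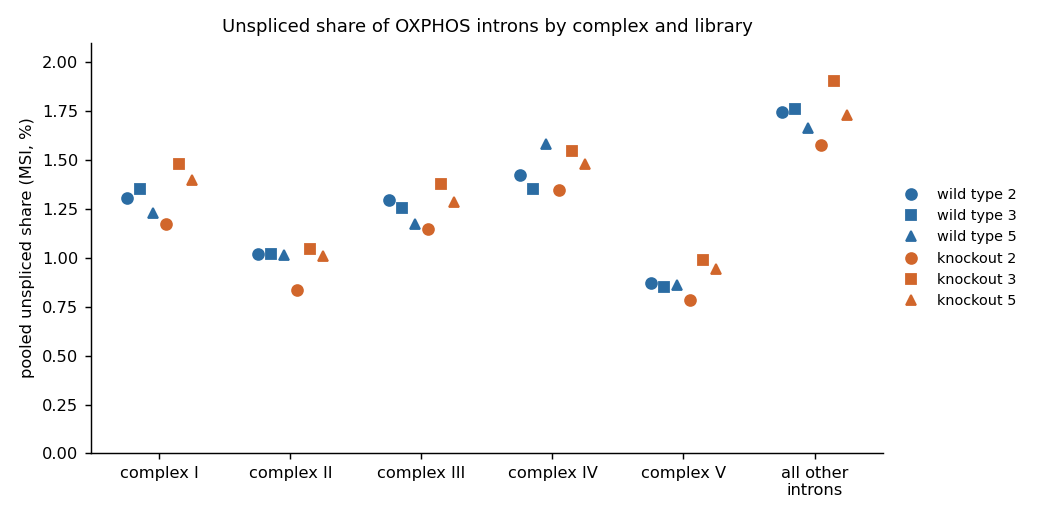
Pooled unspliced share (MSI, in percent) of the introns of each complex, and of all other introns, in each library; colour gives the group and the shape the replicate number. Complex V lies lowest, between 0.78% and 0.99%, all complexes lie below the other introns of the same library, and knockout replicate 2 is the lowest library in each complex.

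The lower MSI of OXPHOS introns held in each class of intron length and was widest for long introns. Among introns that overlap no other listed intron, 24 OXPHOS introns of 5000 bases or more had 0.61% ± 0.035 in wild-type libraries, beside 1.49% ± 0.063 for 28287 other introns of that length (SD, n = 3). The 45 OXPHOS introns under 200 bases had 1.33% ± 0.016, beside 1.84% ± 0.13. The 99 introns of 200 to under 1000 bases had 1.05% beside 1.62%, and the 131 of 1000 to under 5000 bases 1.09% beside 1.42%. First introns of the members had a higher pooled MSI, at 1.34% ± 0.086 in wild-type libraries and 1.30% ± 0.090 in knockout libraries. Their later introns had 0.995% ± 0.040 and 1.04% ± 0.12. Introns with many unspliced reads weigh most in these pooled values. The first introns of Atp5e, Atp5g2 and Cox6b2 held 3506, 3245 and 2349 unspliced reads over all libraries. For Atp5g2, 99.0% of them lay at the 3′ end. A difference per intron was not tested.

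No OXPHOS intron passed the test of retention between the groups. Retention was tested as the interaction between genotype and the kind of read (crossing an intron end or spliced) (edgeR quasi-likelihood test), where every library had 20 or more reads of the 2 kinds together. Of 348 member introns tested none passed the adjusted threshold of 0.05, which 0.0273% of all 95371 introns tested passed. At an unadjusted p under 0.05 there were 18, beside 4.14% of all introns, 6 higher and 12 lower. Without knockout replicate 2 there were 30, and 232 of the 348 introns were higher. The median log2 odds was then 0.14 for the members, beside 0.09 over all introns. With every library kept, the median log2 odds was -0.01 for the members and 0.02 for all introns. By complex the medians were -0.01, -0.17, 0.02, 0.00 and -0.02 from I to V.

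The smallest p-value was that of Cox5b intron 2 (chr1:36692285-36692430, 146 bases). Its MSI was 0.18%, 0.35% and 0.39% in wild-type libraries and 0.14%, 0.11% and 0.16% in knockout libraries, so that the groups did not overlap. It rested on 6, 39 and 47 unspliced reads beside 1636, 5514 and 5975 spliced reads in wild-type libraries, and on 19, 6 and 11 beside 6660, 2711 and 3476 in knockout libraries (log2 odds -1.26, SE 0.37, adjusted p = 0.700, edgeR). Atp5j2 intron 5, in the gene of subunit f of ATP synthase, had 0.26%, 0.30% and 0.32% against 0.09%, 0.26% and 0.12% (log2 odds -1.13, SE 0.38, adjusted p = 1), also with no overlap. Ndufb9 intron 2 went the other way, with 0%, 0.029% and 0.098% in wild-type libraries and 0.25%, 0.15% and 0.29% in knockout libraries (log2 odds 2.01, SE 0.69, adjusted p = 1), on only 26 unspliced reads in all. In complexes II and III the smallest p-values were those of Sdhd intron 2 (log2 odds -0.62, SE 0.35, on 166 unspliced reads) and of Uqcrc2 intron 8 (log2 odds -1.66, SE 0.80, on 18 unspliced reads).

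When the reads of all introns of a gene were summed first, 81 members could be tested and none passed, beside 0.0457% of 13137 genes. There were 3 members at an unadjusted p under 0.05, beside 4.38% of those genes: Ndufb6, Ndufv3 and Atp5l. Ndufv3 had an MSI of 0.74%, 0.47% and 0.52% in wild-type libraries and 0.75%, 0.84% and 0.96% in knockout libraries (log2 odds 0.62, SE 0.21, adjusted p = 0.851, edgeR). All knockout libraries were above all wild-type libraries, by very little between knockout replicate 2 and wild-type replicate 2. Ndufb6, an accessory subunit of the membrane arm of complex I, had 0.48%, 0.64% and 0.38% in wild-type libraries and 0.089%, 0.24% and 0.34% in knockout libraries (log2 odds -1.29, SE 0.38, adjusted p = 0.616). Over the 81 genes the median log2 odds was 0.05, beside -0.0049 over all genes. Atp5l had 0.19%, 0.29% and 0.27% in wild-type libraries and 0.283%, 0.695% and 0.432% in knockout libraries (log2 odds 0.73, SE 0.35, adjusted p = 1), and the groups overlapped.

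A small number of OXPHOS introns had a high MSI in wild-type libraries, and the end of the intron that the unspliced reads crossed differed sharply among them. In 21 of the 348 tested introns the mean wild-type MSI was above 5%, while it was under 1% in 217 of them. For 8 of the 21, at least 80% of the unspliced reads lay at the 3′ end, for 1 at the 5′ end, and for 12 they were spread over both ends. Atp5g2 intron 1 had an MSI of 22.5%, 20.1% and 21.1% in wild-type libraries and 19.5%, 20.1% and 19.2% in knockout libraries. Of its 3245 unspliced reads 99.0% crossed the 3′ end: in wild-type replicate 5, 810 reads crossed that end and 4 the 5′ end. Cox4i1 intron 1, at 12.6%, 13.4% and 14.4% in wild-type libraries and 14.2%, 15.1% and 14.5% in knockout libraries, had 99.7% of its 8299 unspliced reads at the 3′ end. These 2 introns carried 17.1% and 37.7% as many spliced reads as the best covered intron of their gene. Reads at 1 end only do not show an intron kept whole; whether they come from transcripts that start inside the intron or from another exon was not tested.

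Cox6b2 intron 1, the only listed intron of that gene, was spread over both ends. Its MSI was 20.4%, 16.4% and 21.5% in wild-type libraries and 27.3%, 18.4% and 22.9% in knockout libraries, with overlapping groups (log2 odds 0.30, SE 0.26, adjusted p = 1, edgeR). It held 438 reads at the 5′ end and 508 at the 3′ end in wild-type replicate 5, beside 1723 spliced reads. Atp5e intron 1 had a mean of 5.95% in wild-type libraries and 6.05% in knockout libraries, with 35.3% of its reads at the 3′ end. Sdha intron 9 had 5.14% and 4.57%, with 43.5% there. Uqcrc1 intron 11 and Cyc1 intron 1 were highest in complex III, at 5.89% and 6.15% in wild-type libraries, with 97.4% and 80.6% of the reads at the 3′ end.

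The highest MSI of all belonged to Ndufa13 intron 1 (chr8:69901733-69901880, 148 bases), at 46.7%, 65.9% and 63.0% in wild-type libraries and 45.5%, 73.8% and 60.0% in knockout libraries. That intron was rarely spliced, with 136 spliced reads in all 6 libraries, which is 0.74% of the reads of the best covered Ndufa13 intron. Ndufv1 intron 2 (29.3% in wild-type libraries) and Atp5d intron 4 (13.8%) were likewise rare, at 4.89% and 3.65% of the best covered intron, and each of these 2 contains 2 shorter listed introns and shares 1 end with each of them. Reads that cross such an end are thus counted for more than 1 intron. None of these introns passed the test (adjusted p = 1 for each, edgeR).

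**Figure D5:**
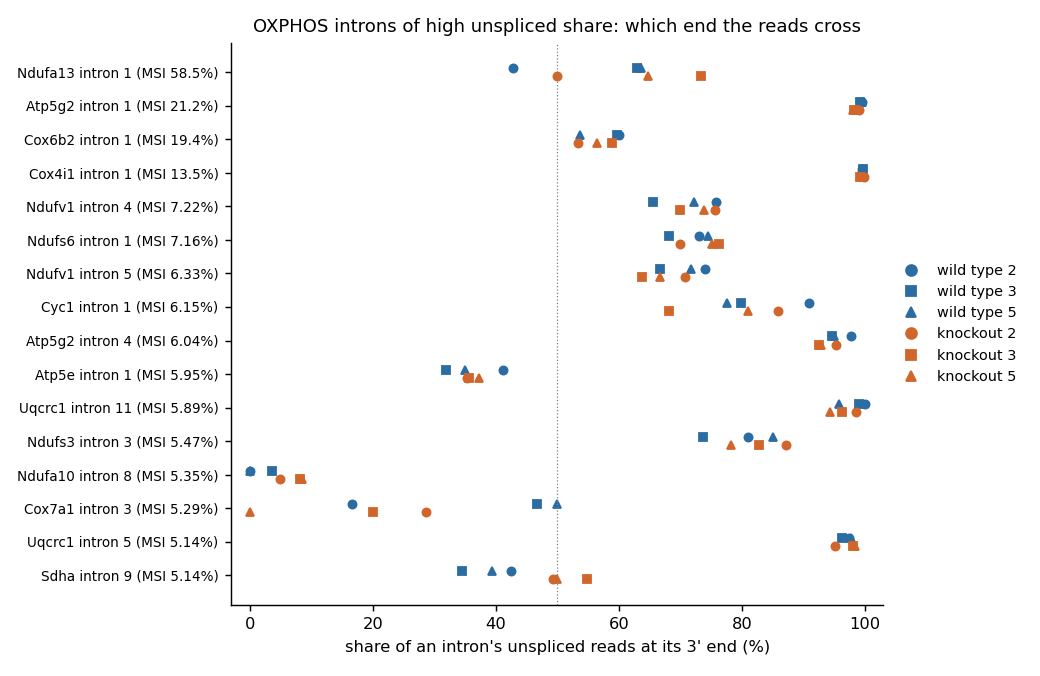
Share of the unspliced reads of an intron that crossed its 3′ end, in percent, in each library, for tested OXPHOS introns with a mean wild-type MSI above 5% that overlap at most 1 other listed intron; colour gives the group and the shape the replicate number, and the label gives the mean wild-type MSI. Atp5g2 intron 1 and Cox4i1 intron 1 lie at 98.1% or more in all 6 libraries, Ndufa10 intron 8 lies at 8.5% or less, and Cox6b2 intron 1 between 53.4% and 60.0%.

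The 5′ splice sites of 10 member introns lay inside the RefSeq promoter windows and could be read. All 10 began with GT, and none with the letters ATATCCT or GTATCCT that mark most U12-type introns. Among the 1356 introns of all genes that could be read in this way, 1333 began with GT and 2 with those U12-type letters. The 8 different sites are shown because ZRSR2 acts on U12-type introns. Lower case gives the last 3 exon bases and capitals the first 9 intron bases, in build GRCm38. Most of the 367 member introns could not be read, and are not described by these.
Atp5g2 intron 1, chr15:102667780-102671017: cagGTAAGGCCT
Atp5h, chr11:115419294-115419891: aagGTGAGTGGG
Atp5j2, chr5:145188259-145191502: tcgGTGAGTACT
Cox7b2, chr5:71503514-71548172: ctgGTAAGTACA
Ndufa3, chr7:3617408-3617616: ggaGTAAGTACA
Ndufa5, chr6:24527318-24527525: aagGTGAGCGTG
Ndufa7, chr17:33824681-33825600: gggGTGCGTGTG
Ndufs7, chr10:80249205-80249311: aagGTTGGTGGT

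Use of alternative junctions was compared last, over introns that share a splice site with another listed intron. Of 56 such member introns in 20 genes none passed, beside 0.024% of 16662 introns of all genes, and 12 were at an unadjusted p under 0.05, beside 5.73% of all. These 12 came from Atp5d, Atp5mpl, Cox6b1, Cox7a2l, Ndufa5 and Ndufb5 only. Introns of a gene that share a site are set against each other's reads, so the 12 are not separate events. The 2 introns of Atp5mpl, for example, had log2 odds of 1.86 and -1.86. The smallest p-value belonged to the Atp5d junction that skips an exon (chr10:80143986-80145422), which gave 1.62%, 2.66% and 1.36% of the reads of its set in wild-type libraries and 2.79%, 7.66% and 2.63% in knockout libraries (log2 odds 1.11, SE 0.38, unadjusted p = 0.011, adjusted p = 0.859, edgeR). Knockout replicate 3 stood far above the rest, and the lowest knockout library lay just below wild-type replicate 3.

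Alternative exons were compared as the share of junction reads that include the exon. An exon of 37 bases near the end of Atp5c1 (chr2:10056770-10056806), known for its tissue-specific use, was included in 35.7%, 31.0% and 33.1% of the reads in wild-type libraries and in 32.3%, 33.1% and 33.5% in knockout libraries (exact permutation p = 0.9, two-sided). The long exon of Ndufv3 (chr17:31527310-31528401, 1092 bases) was included in 5.16%, 6.86% and 6.56% in wild-type libraries and in 8.98%, 6.58% and 7.42% in knockout libraries (exact permutation p = 0.2), and the groups overlapped. With 3 libraries against 3 the smallest p that this test can give is 0.1. That value was reached by an exon of 55 bases in Atp5j, included in 2.520%, 2.39% and 2.19% in wild-type libraries and in 2.521%, 3.31% and 2.69% in those of the knockout (exact permutation p = 0.1). It was also reached by an exon of 69 bases in Cox7a2l, at 0.14%, 0.25% and 0.038% against 0.28%, 0.28% and 0.29% (exact permutation p = 0.1), on at most 7 reads at either side of the exon in a library. In both exons every knockout library was above every wild-type library, by a very small step in Atp5j.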

How the data were processed

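Libraries of polyA-selected RNA from VGB6 ES cells were deposited as 1 table of introns each, on build mm10 per the submitters' processing notes; the sources used here do not give the aligner, the counter or the strand setting. Per the file headers each intron has raw read counts at its ends (A1, A2) and across its splice (Exon), a covered fraction that was deposited by the authors and not used in a test, and the MSI in percent as deposited by the authors. The deposited MSI equalled 100 × (A1 + A2)/(A1 + A2 + 2 × Exon) in all 1319670 values, within 0.01. In 57060 of 57060 comparisons of nested introns, summed over the 6 libraries so that a pair can count in each, the wider intron's Exon count did not exceed the inner one's, so Exon was read as any splice gap that contains the intron.

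Gene level was the sum of Exon counts over the introns of a gene, tested with edgeR 4.0.16 (R 4.3.3; TMM, filterByExpr, quasi-likelihood test, Benjamini-Hochberg over all genes). Retention was the interaction of read kind with genotype, with a term per library, for introns with at least 20 reads in every library. DESeq2 1.42.0 and limma 3.58.1 served as alternatives. Own spliced reads (Exon less the reads of wider introns), introns that overlap no other, and a read minimum for the pooled MSI were added after seeing the data. The tests of retention summed per gene and of junctions that share a splice site were also added then. Spliced reads per library ranged from 19801687 to 63623214. Over all gene counts together, counting error was small beside the spread between libraries. It weighs more for unspliced reads, of which the median tested member intron had 115 over all 6 libraries, and for genes with few reads.

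Genes were assigned by RefSeq spans and strand; 10 member introns also lie inside another gene. The members and all lists were chosen with earlier results of these data known. Named were, by rule, genes past the threshold and the up to 3 genes in each direction per complex whose groups did not overlap. Also named were core subunits of complexes I to III, chosen nuclear subunits of complexes IV and V, and isoform sets. In each complex the 2 introns of highest wild-type MSI and the intron of smallest p were named. So were the 2 genes of highest summed level in each other list. Ndufv3, Ndufb6, Atp5l retention, the other introns of high MSI and the alternative exons were chosen after their values were seen. Promoter letters came from RefSeq windows of GRCm38.p6. Values of some genes named by the rule are not reported here.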

Additional observations from a re-analysis of the deposited data

How the results depend on the processing

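No OXPHOS intron passed the adjusted threshold under any alternative, and of the OXPHOS genes only Ndufa4l2 did: the count was 1 with DESeq2, and 0 to 1 when each library was left out in turn (1 without wild-type replicate 3). The count over all genes was 3 in edgeR, 220 with DESeq2, 7 without a filter, 12 with the best covered intron, 5 with own spliced reads, 8 with the replicate block and 0 to 27 when a library was left out. Over all introns it was 26, with 39 for library sizes of each read kind, 9 for at least 10 unspliced reads, 0 with limma and 7 to 25 when a library was left out. The OXPHOS introns at an unadjusted p under 0.05 were 18, with 29 for library sizes of each read kind, 11 for at least 10 unspliced reads, 9 with limma and 13 to 30 when a library was left out. The OXPHOS genes at that threshold were 4, with 6 for the best covered intron and 3 with own spliced reads. They were 1 to 14 when a library was left out. The log2 change of Zrsr2 ran from -7.57 to -6.19 over the libraries left out. The pooled MSI difference ran from -0.0145 without knockout replicate 3 to 0.0983 without knockout replicate 2, so that its direction rests on knockout replicate 3.

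Of 41 named genes 9 changed sign under some setting. With library sizes without TMM, Atp5g2 was at -0.0275 and Cox6a1 at -0.0322. With the best covered intron, Atp5g2 was at -0.0090, Cox5a at -0.0371, Cox6a1 at -0.0058, Ndufs7 at -0.0537, Sdhb at 0.0581 and Sdhc at 0.108. Sdhb was at 0.0039 with DESeq2 and 0.0035 with its size factors, and Sdhc at 0.0035 and 0.0036. Over the libraries left out, Atp5g2 ran from -0.0656 to 0.0728, Cox5a from -0.0557 to 0.169, Cox6a1 from -0.166 to 0.108, Cox8a from -0.00081 to 0.164, Cox8c from -1.06 to 0.483, Ndufs7 from -0.0238 to 0.134, Sdha from -0.0229 to 0.0174, Sdhb from -0.0613 to 0.0601 and Sdhc from -0.0444 to 0.0636. The Ndufa13 intron had log2 odds of 0.0817 with limma and -0.486 to 0.374 over the libraries left out, the Atp5d intron -0.713 to 0.0357 and the Ndufv1 intron -0.161 to 0.444. The causes were not tested.

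Over all genes tested, libraries of the same number did not deviate together (correlations 0.0642, 0.0679 and 0.0173), so the numbers were not taken to pair the samples. The summed fibroblast markers did fall from number 2 to 3 to 5 in both groups. Of the ES cell markers, Esrrb, Klf4 and Tfcp2l1 rose in that order in both groups. None of the other ES cell markers rose or fell in that order in both groups. Esrrb had 54.1, 67.7 and 102.9 CPM in wild-type libraries and 41.2, 60.5 and 70.2 CPM in knockout libraries. The sample titles write the numbers as P2, P3 and P5 without explaining the letter, and an effect tied to the number was not tested for those markers. With the replicate block the median log2 change of the members was 0.0995, 0 genes and 0 introns of the members were called, Zrsr2 was at -6.81, Cox6a1 turned to -0.0075, Cox8c to -0.261 and the Ndufa13 intron to 0.0701. The pooled MSI has no test, so limma, the library sizes of each read kind and the block gave no value for it. Introns with few unspliced reads, such as Ndufb9 intron 2 with 26, limit what could be detected. Small changes could be missed in well covered introns too. Cox4i1 intron 1, with 8299 unspliced reads, had an SE of 0.23 in the edgeR test of retention.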
